A study of Mus musculus with 4 samples.

Results

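Dbp, Tef, Hlf, Nfil3, Nr1d1, Nr1d2, Rora, Ciart and Usp2 are outputs or accessory arms of the circadian clock, and they are 9 of the 22322 genes measured in cardiomyocytes of mice with pressure overload of the heart. They were chosen by measured values of these libraries, namely the fall of Dbp and the rise of Nfil3 in TAC, together with the relatives and partners of those genes. Dbp, Tef and Hlf encode the PAR bZIP activators, Nfil3 (also E4BP4) a repressor, Nr1d1 and Nr1d2 the receptors REV-ERBα and REV-ERBβ, Rora the receptor RORα, Ciart a repressor of the loop and Usp2 a deubiquitinase. RNA-seq was run on cardiomyocytes of 2 sham-operated mice (sham 1, sham 2) and 2 mice with transverse aortic constriction (TAC 1, TAC 2), a surgical narrowing of the aorta that makes the left ventricle pump against a higher pressure. All were male and operated at 2 months of age, and each library came from the dissociated cells of 1 heart. The methods place the end point at 14 weeks, once as time after surgery and once as the age of the mice. The methods name ketamine and xylazine as the anaesthetic of the operation, and no strain, deletion or transgene is stated there or in the labels for either group. The question put to these genes was which of them differ between TAC and sham and which between animals of one group.

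The libraries held 24237777 to 32118323 counts, of which mitochondrial genes took 39.84% to 47.42%, the highest share in TAC 1. Replicates differed by more than counting noise (chi-square per degree of freedom 8.08 in sham and 26.71 in TAC). With 2 animals a group, an exact permutation test of 1 gene cannot give a two-sided p below 0.333, so tests rest on a spread estimated over all genes.

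The clock drives many genes through short DNA elements in their promoters. BMAL1 (gene Arntl) and CLOCK bind E-boxes and activate the Per and Cry genes, Dbp, Tef, Hlf, Ciart, Usp2 and both REV-ERB genes, and the PER and CRY proteins then repress them. REV-ERB and ROR proteins compete for a different element, the ROR element, at Arntl, Npas2, Clock, Cry1 and Nfil3, so these genes peak when REV-ERB proteins are low. DBP, TEF and HLF activate, and NFIL3 represses, genes that carry another element, the D-box, and heart muscle cells run this loop on their own and under hormonal and feeding cues.

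The promoters of the members differed in which of these elements they carried within a fixed window. RefSeq sequence of GRCm38.p6 was searched on both strands from 250 bases before to 50 bases after each gene's start, and all 9 members matched 10 windows among 32851 windows of 27025 genes. The 5 windows below are shown because they carry a matching element (Ciart, Tef, Nr1d1) or belong to the members with the widest change in either direction (Dbp, Nfil3). Only the 250 bases before the start are printed, 5′ to 3′ on the strand of the gene. Capitals mark a CACGTG, the E-box, or a CACGTT, a variant of it that reads AACGTG on the opposite strand. The windows lie at chr3:95882229-95882478 on the minus strand (Ciart), chr15:81811164-81811413 on the plus strand (Tef, the second of its 2 starts), chr11:98775378-98775627 on the minus strand (Nr1d1), chr7:45704997-45705246 on the plus strand (Dbp) and chr13:52981040-52981289 on the minus strand (Nfil3).
Ciart: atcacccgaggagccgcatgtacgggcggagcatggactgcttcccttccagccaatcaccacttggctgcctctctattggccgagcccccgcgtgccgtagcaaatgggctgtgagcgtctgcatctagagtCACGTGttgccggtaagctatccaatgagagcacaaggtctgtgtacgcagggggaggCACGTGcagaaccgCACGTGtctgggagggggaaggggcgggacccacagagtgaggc
Tef: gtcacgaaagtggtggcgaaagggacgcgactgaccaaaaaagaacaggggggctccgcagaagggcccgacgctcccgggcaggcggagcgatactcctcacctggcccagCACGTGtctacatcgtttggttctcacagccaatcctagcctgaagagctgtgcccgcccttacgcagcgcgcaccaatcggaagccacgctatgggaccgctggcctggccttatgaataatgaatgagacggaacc
Nr1d1: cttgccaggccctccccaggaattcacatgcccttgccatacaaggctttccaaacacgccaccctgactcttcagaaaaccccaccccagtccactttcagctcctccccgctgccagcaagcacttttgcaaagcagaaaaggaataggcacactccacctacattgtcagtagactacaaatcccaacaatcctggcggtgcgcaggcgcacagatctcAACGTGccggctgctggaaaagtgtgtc
Dbp: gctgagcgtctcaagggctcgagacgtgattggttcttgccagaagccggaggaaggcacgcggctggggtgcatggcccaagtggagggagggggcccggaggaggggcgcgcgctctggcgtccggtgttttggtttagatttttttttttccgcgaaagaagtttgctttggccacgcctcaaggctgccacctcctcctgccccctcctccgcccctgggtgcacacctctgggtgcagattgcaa
Nfil3: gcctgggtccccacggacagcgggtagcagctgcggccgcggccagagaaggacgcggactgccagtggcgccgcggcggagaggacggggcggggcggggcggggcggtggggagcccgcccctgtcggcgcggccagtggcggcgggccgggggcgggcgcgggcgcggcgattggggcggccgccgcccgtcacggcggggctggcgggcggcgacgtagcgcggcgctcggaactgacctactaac

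The E-box CACGTG occurred in 7.15% of all windows and in at least 1 window of 8.09% of genes. Among the members it was found in Ciart and Tef. The window of Ciart held 3 matches, which began 116, 58 and 44 bases before the start, and each of the 2 windows of Tef held 1, beginning 127 and 138 bases before the start. The variant CACGTT occurred in 5.44% of genes and in Nr1d1 alone among the members, 28 bases before the start. The D-box, searched as TTATGTAA or TTACGTAA, was in 1.23% of genes and in no member window, and the ROR element, which is an AT-rich stretch followed by a nuclear receptor half-site, was in 0.459% of genes and in no member window. A missing match says only that these letters are not in this window. The window of Nfil3 was 81.7% G and C, against a median of 52.7% over all windows and 60.3% for Dbp.

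On the scale that compares genes, the deposited FPKM (fragments scaled by transcript length and library size), the members fell into an abundant and a scarce set in the sham libraries. Nr1d1 had the highest mean, at 30.0 and 29.8 FPKM in sham 1 and sham 2. It was followed by Dbp (20.1 and 34.3), Tef (19.4 and 29.2), Usp2 (19.5 and 28.8) and Nr1d2 (19.9 and 22.1). The ranges of Dbp, Tef, Usp2 and Nr1d2 overlapped one another, so their order could not be told from 2 libraries, whereas Tef, Usp2 and Nr1d2 stayed below Nr1d1. Ciart (1.62 and 6.09), Nfil3 (3.27 and 2.32), Hlf (1.95 and 2.95) and Rora (1.99 and 1.91) formed the scarce set, and their neighbours in that order also overlapped.

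In the TAC libraries Nr1d1, Tef and Usp2 lay above the other members. Nr1d1 had 15.1 and 25.4 FPKM in TAC 1 and TAC 2, Tef 16.3 and 16.1, Usp2 14.1 and 17.7 and Nr1d2 9.05 and 12.2. Dbp, second in the sham order with a mean of 27.2 ± 10.0 FPKM (SD, n = 2), stood at 2.44 and 6.34. Nfil3, at 9.93 and 5.86 FPKM, lay above Dbp in TAC 1 and below it in TAC 2. Ciart (1.58 and 1.93), Rora (1.54 and 1.61) and Hlf (1.16 and 1.23) were lowest, with Hlf below the other 2 in both libraries.

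**Figure D1:**
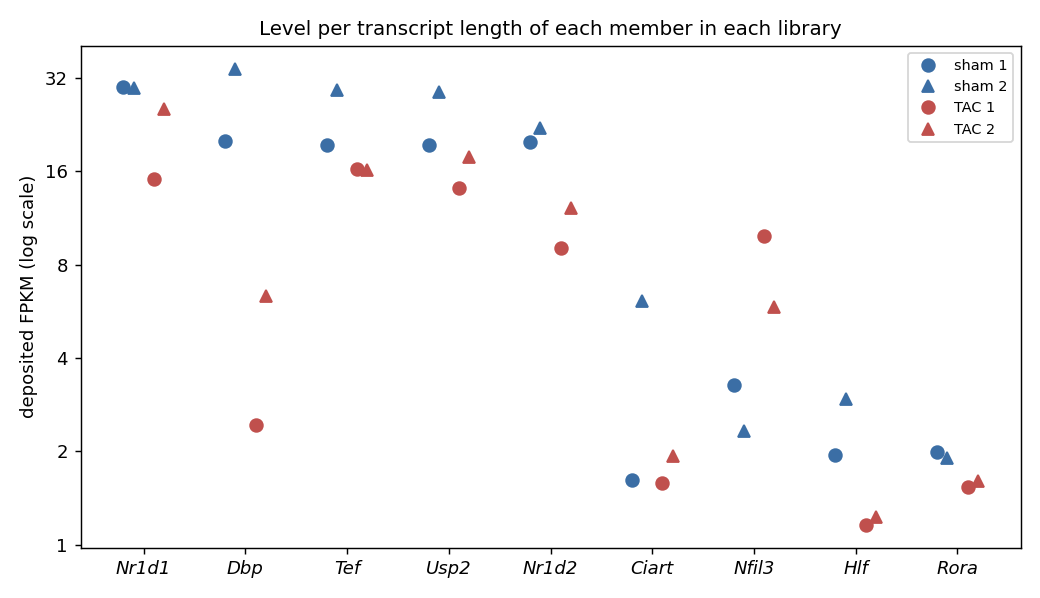
Deposited FPKM (log scale, a level per transcript length) of each of the 9 members in each library, ordered by the sham mean, with blue for sham, red for TAC, circles for replicate 1 and triangles for replicate 2. Dbp moved from between 20.1 and 34.3 in sham to between 2.44 and 6.34 in TAC, and Nfil3 from between 2.32 and 3.27 to between 5.86 and 9.93.

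Levels of 1 gene across libraries are given from here as CPM, the deposited expected counts scaled to a library size corrected by TMM (a scaling that assumes most genes keep their level). Of the PAR bZIP activators, Dbp had the widest difference. Its level was 32.8 CPM in sham 1 and 57.7 in sham 2, against 4.81 in TAC 1 and 10.8 in TAC 2, from 1037, 1661, 134 and 264 counts. Both TAC libraries lay below both sham libraries. The means were 45.2 ± 17.6 CPM in sham and 7.80 ± 4.24 in TAC (SD, n = 2 each), and the fitted log2 fold change was −2.55 ± 0.38 (SE), a level 5.85-fold lower in TAC.

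Tef, which binds the same D-box, had 74.9 and 115 CPM in sham 1 and sham 2 and 78.9 and 67.6 CPM in TAC 1 and TAC 2. The groups overlapped, because TAC 1 lay above sham 1, and the log2 fold change was −0.37 ± 0.18. On the FPKM scale both TAC values lay below both sham values. Hlf, the third PAR bZIP gene, had 10.0 and 16.0 CPM in sham and 7.53 and 6.87 CPM in TAC, without overlap, with a log2 fold change of −0.85 ± 0.22. Without sham 2 the log2 fold change was −0.03 for Tef and −0.47 for Hlf. Dbp was picked for its fall and Tef and Hlf as its relatives, so the wider difference of Dbp restates that choice. The ratio of Dbp to Tef counts was 0.438 and 0.502 in sham 1 and sham 2 and 0.061 and 0.16 in TAC 1 and TAC 2, and that of Dbp to Hlf was 3.27 and 3.60 against 0.639 and 1.57. These ratios hold within a library, so they do not depend on its scaling.

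Nfil3, the repressor of the same element, was the only member above its sham level. Its level was 6.04 and 4.52 CPM in sham 1 and sham 2 and 23.2 and 11.8 CPM in TAC 1 and TAC 2, from 191, 130, 646 and 288 counts. Both TAC libraries lay above both sham libraries, and TAC 1 lay above TAC 2. The means were 5.28 ± 1.07 and 17.5 ± 8.05 CPM, and the log2 fold change was 1.73 ± 0.31, a level 3.31-fold higher in TAC. Without TAC 1 it was 1.15. The ratio of Dbp to Nfil3 counts, an activator over the repressor of one element, was 5.43 in sham 1 and 12.8 in sham 2, against 0.208 in TAC 1 and 0.916 in TAC 2. Dbp counts exceeded Nfil3 counts in both sham libraries and in neither TAC library, although per length (FPKM) Dbp lay above Nfil3 in TAC 2. Both genes were picked on this contrast, so the ratio restates that choice.

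**Figure D2:**
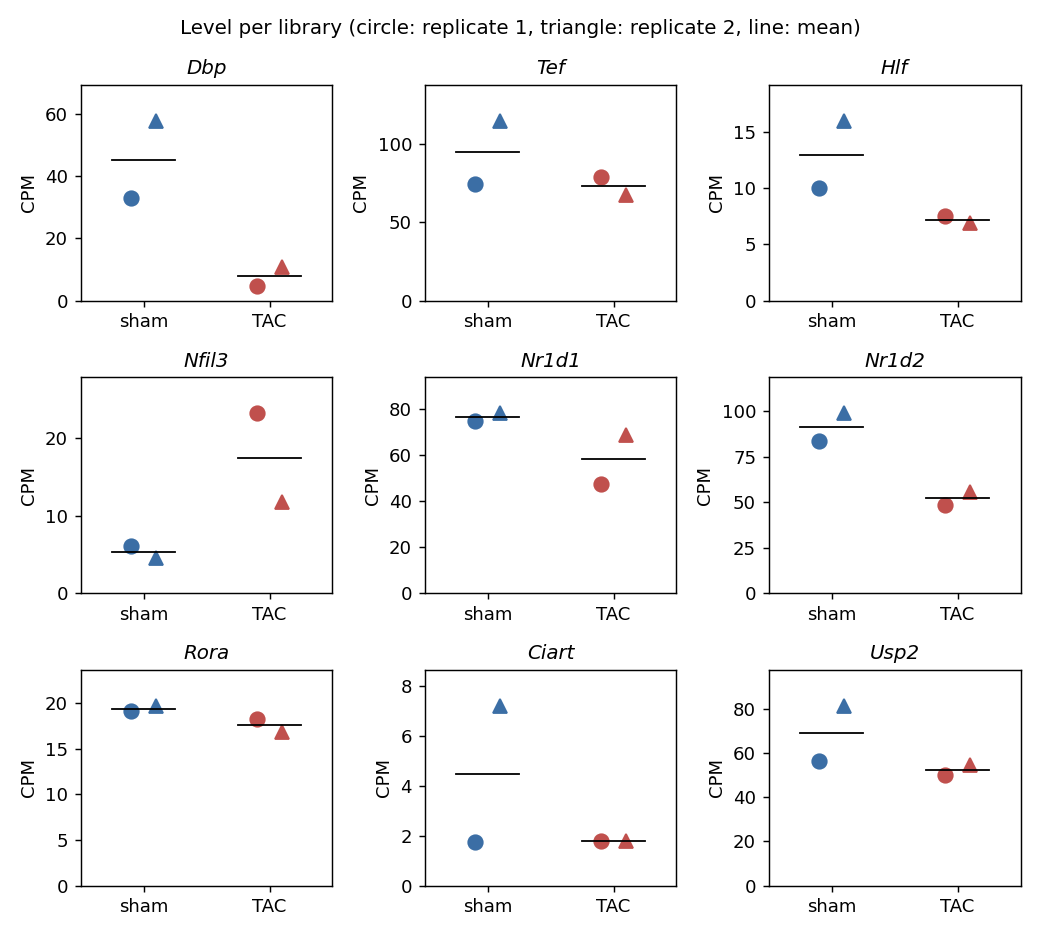
CPM of each member in each library on a linear axis from 0, with blue for sham, red for TAC, circles for replicate 1, triangles for replicate 2 and a line at the mean of each group (n = 2). Dbp, Hlf, Nr1d1, Nr1d2, Rora and Usp2 had both TAC points below both sham points, Nfil3 had both above, and Tef and Ciart overlapped.

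Of the REV-ERB receptors, which repress through the ROR element, Nr1d2 differed more than Nr1d1. Nr1d2 had 83.4 and 98.7 CPM in sham 1 and sham 2 and 48.6 and 55.6 CPM in TAC 1 and TAC 2. The groups did not overlap, and the log2 fold change was −0.80 ± 0.11 (SE), a level 1.75-fold lower in TAC. Nr1d1 had 74.4 and 77.9 CPM in sham and 47.4 and 68.5 CPM in TAC. Both TAC values were lower, with TAC 2 close to sham 1, and the log2 fold change was −0.40 ± 0.15. Without TAC 1 it was −0.15 and without TAC 2 −0.68, so its size rested on TAC 1.

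Rora, the activator that competes for the ROR element, had 19.1 and 19.7 CPM in sham and 18.3 and 16.8 CPM in TAC, with a log2 fold change of −0.14 ± 0.10. The 4 libraries lay close together, although the groups did not overlap.

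The last 2 members are outputs with other roles. Ciart encodes CHRONO, which represses BMAL1 and CLOCK. Its level was 1.74 CPM in sham 1 and 7.19 in sham 2, against 1.79 in TAC 1 and 1.80 in TAC 2, from 55, 207, 50 and 44 counts. Sham 1 could not be set apart from the TAC libraries, and sham 2 alone was high. The log2 fold change was −1.30 ± 0.58 with all libraries, −2.00 without sham 1 and 0.05 without sham 2, so its direction rested on sham 2. Usp2, which encodes a ubiquitin protease, had 56.6 and 81.4 CPM in sham and 50.2 and 54.8 CPM in TAC. The groups did not overlap, with TAC 2 close to sham 1, and the log2 fold change was −0.39 ± 0.16 with all libraries and −0.10 without sham 2.

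Over the 9 members, 8 had a log2 fold change below 0 and their median was −0.40, against −0.01 over the 12499 genes tested. The members' median was −0.11 without sham 2, −0.65 without sham 1 and −0.68 without TAC 2. All 9 passed the filter on low counts. The call threshold, an adjusted p under 0.05 in the edgeR fit, was passed by Nfil3 above sham, where 2.58% of all genes tested were called higher, and by Dbp and Nr1d2 below sham, where 2.43% were called lower. These are 322 and 304 genes, and with total-count scaling 105 and 423. Groups without overlap were found for 1 member above sham and 6 below, against 29.8% and 30.3% of all genes tested. Since the members were chosen on this contrast, no p-value is given for them and nothing is read from these counts. The choice used no threshold, since Dbp and Nfil3 were picked on their values and the others as their relatives. Without sham 1, 6 members were called lower (Dbp, Tef, Hlf, Nr1d2, Ciart and Usp2), where 300 of 12672 genes tested were called lower. Without sham 2 it was 2 members (Dbp and Nr1d2), where 456 of 12866 genes were.

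**Figure D3:**
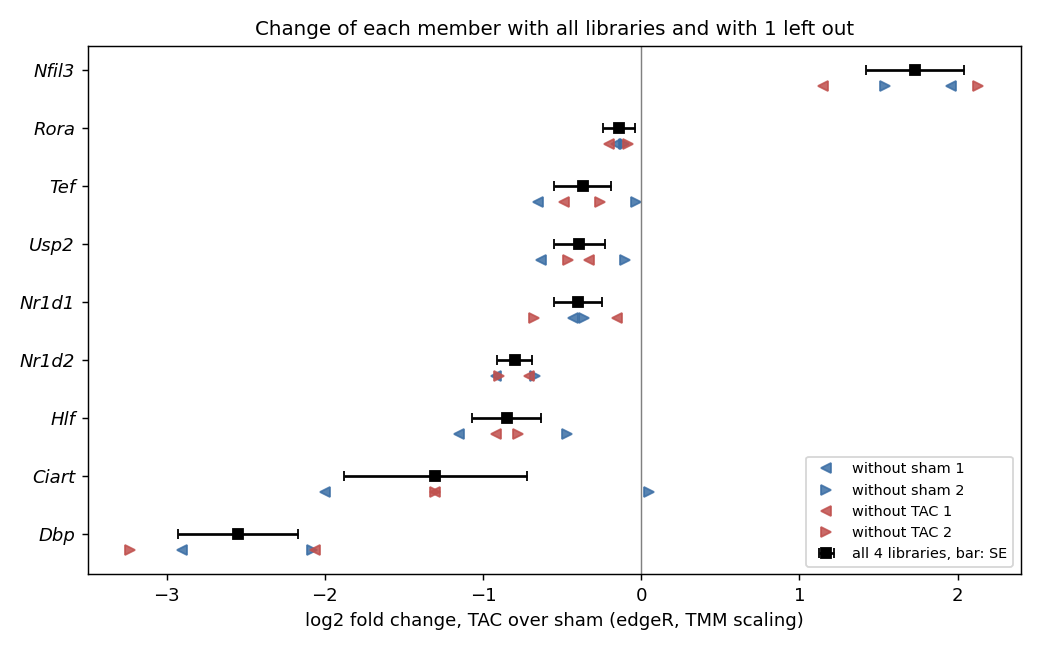
Log2 fold change of TAC over sham for each member, with all 4 libraries (black squares, bars: SE) and with each library left out in turn (blue triangles: sham, red triangles: TAC; left-pointing: without replicate 1, right-pointing: without replicate 2). The values of Ciart ran from −2.00 to 0.05 with a sham library left out, whereas Dbp stayed between −3.23 and −2.06 and Nfil3 between 1.15 and 2.13.

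The sham libraries differed from each other on these genes, a contrast that the choice of members did not use. Sham 2 lay above sham 1 in 8 of 9 members, against 51.0% of all genes tested, and Nfil3 was the exception. The median size of the log2 ratio between the sham libraries was 0.52 over the members and 0.14 over all genes tested. Between the TAC libraries it was 0.19 and 0.16. Each ratio below has an exact 95% interval that covers counting error only. Ciart was 4.14-fold higher in sham 2 (3.06 to 5.68), a gap reached by 0.392% of genes tested. Dbp was 1.76-fold higher (1.63 to 1.91), Hlf 1.60-fold (1.38 to 1.85), Tef 1.54-fold (1.46 to 1.62) and Usp2 1.44-fold (1.35 to 1.53). Gaps of these sizes were reached by 5.04%, 7.25%, 8.55% and 11.1% of genes tested, respectively.

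The nuclear receptors varied less between the sham libraries. Nr1d2 was 1.18-fold higher in sham 2 (1.12 to 1.25), Nr1d1 1.05-fold (0.987 to 1.11) and Rora 1.03-fold (0.917 to 1.16), so the last 2 did not differ beyond counting error. Nfil3 stood at 0.748 of its sham 1 level in sham 2 (0.594 to 0.940). Between the TAC libraries, TAC 1 had 0.445 of the Dbp of TAC 2 (0.359 to 0.550), 0.691 of the Nr1d1 (0.643 to 0.743) and 1.97-fold the Nfil3 (1.71 to 2.27). Dbp was thus lowest, and Nfil3 highest, in the same library, TAC 1. Ciart did not differ between the TAC libraries (ratio 0.997, 0.651 to 1.53). Neither the labels nor the methods state the hour at which hearts were taken, and with 1 heart a library it cannot be told apart from other differences between the animals.

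The other genes of the loop were described from lists. All 6 genes of the E-box driven arm (Per1, Per2, Per3, Cry2, Bhlhe40, Bhlhe41) had both TAC libraries below both sham libraries, as 30.3% of all genes tested did, with a median log2 fold change of −0.73 (−0.35 without sham 2 and −1.07 without sham 1), and 1 passed the test. Per3, a repressor of the loop, fell from 9.23 and 17.0 CPM in sham 1 and sham 2 to 4.38 and 5.68 CPM in TAC 1 and TAC 2 (log2 fold change −1.38 ± 0.29, edgeR adjusted p = 0.0441). The adjusted p of Per3 was 0.0502 without sham 2 and 0.116 without TAC 1. DESeq2 called 3 of the 6 lower, where it called 429 of 16015 genes lower. Per1 (8.50, 17.6, 7.60 and 6.95 CPM in sham 1, sham 2, TAC 1 and TAC 2) and Per2 (2.88, 7.09, 1.72 and 2.82) did not pass, and for both, sham 1 lay nearer to the TAC libraries than to sham 2. Sham 2 lay above sham 1 in 5 of the 6, all but Bhlhe40.

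The ROR element driven arm went the other way. All 4 genes (Arntl, Clock, Npas2, Cry1) had both TAC libraries above both sham libraries, as 29.8% of all genes tested did, with a median log2 fold change of 0.79, and 1 passed the test. Cry1, a repressor of the loop, rose from 5.31 and 4.59 CPM to 8.18 and 8.59 CPM (log2 fold change 0.76 ± 0.16, edgeR adjusted p = 0.0423). Without 1 library the adjusted p of Cry1 was 0.108 (sham 2), 0.0871 (TAC 1) or 0.0507 (TAC 2), with total-count scaling 0.141 and with totals without mitochondrial genes 0.0682. Arntl had 10.2 CPM in sham 1 and 3.75 in sham 2, against 16.5 in TAC 1 and 14.8 in TAC 2 (edgeR adjusted p = 0.102). Sham 2 lay below sham 1 in all 4 genes of this arm, and sham 1 lay between sham 2 and the TAC libraries for every gene of both arms except Bhlhe40. The ratio of Dbp to Arntl counts put the 4 libraries in the order 15.4 (sham 2), 3.21 (sham 1), 0.729 (TAC 2) and 0.291 (TAC 1). Dbp alone gave the same order (57.7, 32.8, 10.8 and 4.81 CPM). Since Dbp was picked for its fall, TAC below sham in this ratio restates that choice.

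**Figure D4:**
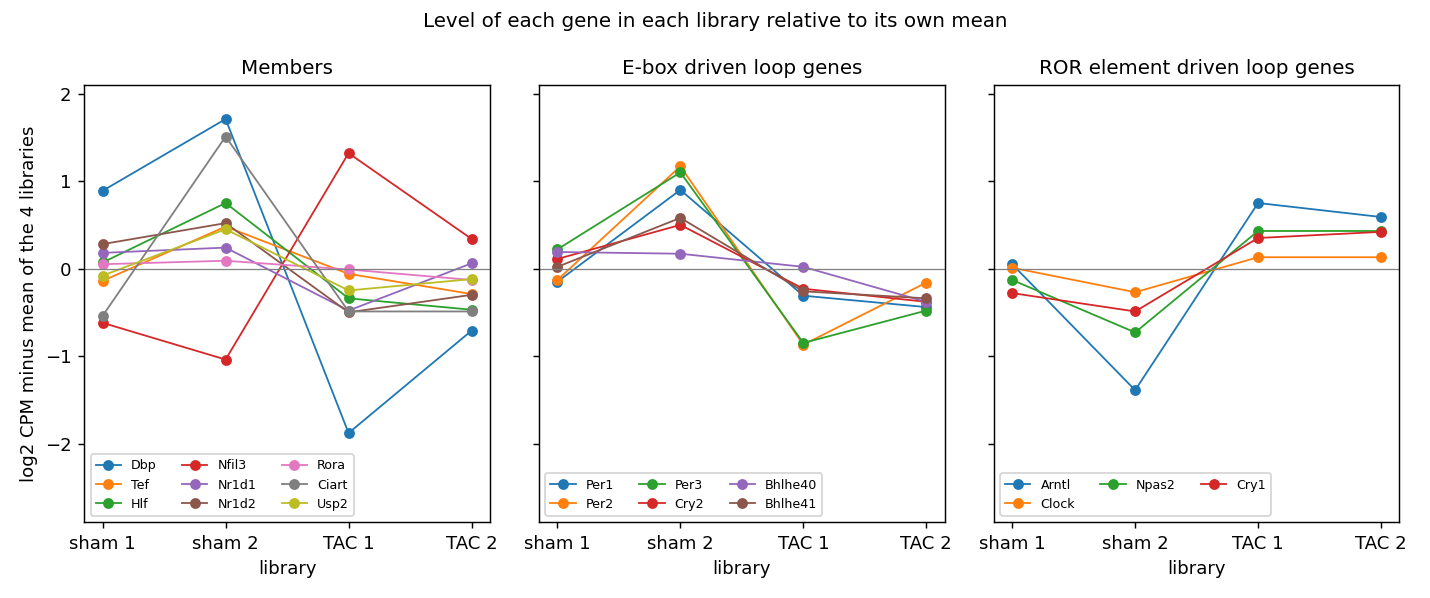
Log2 CPM of each gene in each library minus its mean over the 4 libraries, for the 9 members, the 6 genes of the E-box driven arm and the 4 genes of the ROR element driven arm. Dbp, Ciart and the Per genes peaked in sham 2, where Arntl was lowest at 3.75 CPM, and Dbp was lowest and Nfil3 highest in TAC 1.

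Partner proteins of the loop and reported targets of the PAR bZIP factors showed no gene past the test in the edgeR fit of all 4 libraries with the filter. None of 4 tested kinases and ligases that set the stability of PER and CRY (median log2 fold change −0.06), none of 6 subunits of the REV-ERB corepressor complex (0.01) and none of 6 tested PAR bZIP targets (0.21) was called by edgeR, and DESeq2 called 0 in each. At an unadjusted p under 0.05 there were 0, 1 (Tbl1x, −0.44) and 1 (Por, 0.30). The share of all genes at that threshold is not given, so such counts, here and below, are description only. Without the filter on low counts, edgeR called Tbl1x lower (adjusted p = 0.0145) and Por higher (adjusted p = 0.0491), among 1676 genes called of 16015. Of the targets, Alas1, which starts haem synthesis, had a mean of 154 CPM in sham and 167 CPM in TAC, and Pdxk, which makes the active form of vitamin B6, 10.7 and 13.6 CPM.

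Of 15 genes reported as clock outputs of heart, 1 was called higher and 4 lower by edgeR, against 2.58% and 2.43% of all genes tested, with a median log2 fold change of −0.19. Groups did not overlap for 3 above sham and 9 below, against 29.8% and 30.3% of all genes. Kcnh2, a repolarising potassium channel, fell from 71.2 and 86.5 CPM to 38.2 and 39.1 CPM (−1.03 ± 0.11, edgeR adjusted p = 0.00492). Kcnd2, a channel of the transient outward current, fell by 0.72 (adjusted p = 0.0104), Tcap, a cap protein of titin, by 0.91 (adjusted p = 0.0148) and Tspan4, a tetraspanin, by 0.71 (adjusted p = 0.0496) on the log2 scale in the same edgeR fit. Cdkn1a, a cell cycle inhibitor, rose by 0.88 (adjusted p = 0.0443). The call of Tspan4 was lost without sham 1 (adjusted p = 0.0513), sham 2 (0.0867) or TAC 1 (0.155), and that of Cdkn1a without TAC 1 (0.124), with total-count scaling (0.073) and with totals without mitochondrial genes (0.071). Klf15 (31.3 ± 9.57 and 35.8 ± 1.98 CPM) and Nampt (190 ± 18.7 and 191 ± 20.3 CPM), both reported as rhythmic in heart, were not called with all 4 libraries. The log2 fold change of Klf15 was 0.20 with all libraries and 0.55 without sham 2.

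Other gene groups were described on the same contrast, and any part of theirs in the results above was not tested. Of 10 glucocorticoid-responsive genes, which also read a daily hormone, 1 was called higher by edgeR, although 7 lay below 0 and the median log2 fold change was −0.33. Ddit4 rose by 1.21 on the log2 scale (edgeR adjusted p = 0.026). At an unadjusted p under 0.05 in edgeR 5 were lower, and DESeq2 called 3 lower (Sgk1, Mt2 and Errfi1). Zbtb16 was low in sham 1 alone (11.3, 40.5, 35.1 and 34.9 CPM). Of 15 immediate early genes, 9 were called lower by edgeR (2.43% of all genes tested) and 10 by DESeq2, and 14 lay below 0. Their summed level was 1078, 630, 259 and 248 CPM in sham 1, sham 2, TAC 1 and TAC 2. It was highest in sham 1, whereas Dbp was highest in sham 2.

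The labelled cell type was carried by its markers, which summed to 67927, 75547, 70063 and 68357 CPM in sham 1, sham 2, TAC 1 and TAC 2 over 10 cardiomyocyte genes. None was called by edgeR, with 4 at an unadjusted p under 0.05 and 4 called by DESeq2. Markers of other cells were present. All 10 genes of each list below had a log2 fold change below 0, but most did not pass the test. Endothelial markers summed to 573, 451, 266 and 379 CPM (2 called lower by edgeR and 5 by DESeq2). Fibroblast markers summed to 516, 357, 197 and 275 CPM (4 and 5) and mural markers to 758, 796, 440 and 579 CPM (2 and 3). Macrophage markers summed to 123, 63.6, 33.1 and 61.4 CPM (0 and 0, with 6 lower at an unadjusted p under 0.05). Their sums in sham 2 and TAC 2 lay close together. Of all genes tested, edgeR called 2.43% lower, and DESeq2 429 of 16015. No marker of any list was at 0 in any library. The endothelial, fibroblast and macrophage sums were highest in sham 1 and lowest in TAC 1. The mural sum was highest in sham 2 and lowest in TAC 1, the same order of libraries as Dbp. Within the mural list 3 of 10 genes lay higher in sham 2 than in sham 1. Nfil3 was highest in TAC 1. In these bulk libraries, fewer cells of a type and less RNA per cell cannot be told apart.

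Genes with the most similar levels over the 4 libraries were ranked by the distance between centred log2 CPM among 8482 genes whose mean over the 4 libraries reached 5 CPM, a filter that genes such as Nlrc3, Fign and Pfkfb1 passed through the group where they were high. This distance is not scaled to the range of a gene, so a gene with the same order of libraries but a smaller range lies farther away. The nearest to Dbp was Pfkfb1 at a distance of 1.13, followed by Fign (1.19), Dixdc1 (1.21), Arhgap32 (1.22) and Zc3h6 (1.26). Pfkfb1, an enzyme that sets the level of fructose 2,6-bisphosphate, had 8.34, 13.0, 2.94 and 4.21 CPM in sham 1, sham 2, TAC 1 and TAC 2. It shared the order of the 4 libraries with Dbp, as did Fign, Dixdc1 and Zc3h6, whereas Arhgap32 was highest in sham 1. The nearest to Nfil3 were Abra (0.34), Nppb (0.43), Shb (0.52), Nlrc3 (0.54) and Nuak1 (0.55). Abra, an actin-binding activator of SRF signalling, had 43.4, 38.2, 229 and 108 CPM, and Nppb, which encodes the natriuretic peptide BNP, had 163, 171, 760 and 471 CPM. Both were highest in TAC 1, as Nfil3 was. These are likenesses over 4 libraries of 2 groups that share their scaling.

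Some members share exon sequence with a gene on the opposite strand, and whether counting used strand is not stated. Dbp (chr7:45705088-45710203, plus strand, GRCm38) shares 539 of its 2993 annotated exon bases with Sphk2, and Nr1d1 (chr11:98767932-98775333, minus strand) shares 263 of 3077 with Thra. Sphk2 had 12.8, 12.7, 17.7 and 12.5 CPM in sham 1, sham 2, TAC 1 and TAC 2. Reads in the shared bases were not separated, so their part in the level of Dbp was not tested. Thra had 38.3, 32.0, 35.9 and 33.7 CPM. Usp2 (chr9:44067021-44095627, plus strand) shares 200 bases with a predicted gene, Gm49380, that had at most 0.29 CPM, and Tef and Rora share exon bases with antisense genes that were not analysed here. The counts of Dbp and Nr1d1 were not whole numbers. The length implied by counts over FPKM was steady for most members, with a highest over lowest of at most 1.08, but for Ciart it was 1177, 1228, 985 and 941 bases in sham 1, sham 2, TAC 1 and TAC 2, a ratio of 1.31.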

How the data were processed

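RNA-seq was measured in 4 libraries, and the labels assign 2 to sham and 2 to TAC. The authors deposited, for each library, expected counts and FPKM of 22322 genes. Bowtie2 2.2.8, StringTie 1.3.1 and mm10 are named in the submitters' processing notes, and strand use in counting was not given in the sources used here. FPKM as deposited by the authors was used to compare levels between genes. The deposited counts, of which a minority were not whole, were rounded to whole numbers for testing. Rows without a symbol (16) were kept under their gene identifiers.

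Counts were filtered with filterByExpr (12499 genes left), scaled with TMM and tested with edgeR 4.0.16 (quasi-likelihood, limma 3.58.1, R 4.3.3), with Benjamini-Hochberg adjustment over all genes tested and calls at an adjusted p under 0.05. CPM used TMM-scaled library sizes. The study scaled by total counts, which served as an alternative because the mitochondrial share differed. TMM factors were 1.097 and 1.040 (sham 1, sham 2) and 0.8683 and 1.009 (TAC 1, TAC 2), and the common coefficient of biological variation was 10.5%. The fitting steps were tested on simulated data.

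The members and gene lists were chosen with earlier results of these data known. Named genes are the 9 members, list genes (called first, then by size of change) and, for Dbp and Nfil3, the 5 genes of at least 5 CPM nearest in centred log2 CPM. Alternatives were total-count scaling, totals without mitochondrial genes, no filter, DESeq2 1.42.0, the deposited FPKM, a replicate block and leaving out each library. Of the gene IDs, 22267 were found in GENCODE M21, which gave gene positions. Promoters came from RefSeq (GRCm38.p6).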

Additional observations from a re-analysis of the deposited data

How the results depend on the processing

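Of genes higher and lower in TAC (322 and 304 of 12499 tested), no low-count filter gave 707 and 969 of 16015. Total-count scaling gave 105 and 423 of 12499, and DESeq2 454 and 429 of 16015. Leaving out 1 library gave 183 to 560 higher and 118 to 776 lower, the lowest without TAC 1 and the highest without TAC 2. In these fits the lone library of a group is assumed to vary like the other group. Total-count scaling moved the median of all genes from −0.01 to −0.20, and relative to that shift Rora (−0.33) and Nr1d2 (−0.98) changed little.

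Members called lower numbered 2, with 3 (Hlf added) under total-count scaling, where 423 of 12499 genes were lower. DESeq2 also called these 3, where 429 of 16015 genes were lower. Without the filter 6 members were called lower, where 969 of 16015 genes were. Members called higher stayed at 1. Ciart reversed without sham 2 (−2.00 to 0.05 over the libraries left out). Of 99 member values, 88 moved by less than the SD between replicates, 10 by more without a change of sign and 1 reversed. That SD rests on the same 2 libraries a group, and leaving out 1 of them can move a value little further. The count of 88 therefore does not measure how stable the values are. Without sham 2 Tef was at −0.03, Hlf at −0.47 and Usp2 at −0.10.

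In the E-box driven arm (1 called lower), total-count scaling called 4, no filter 5, DESeq2 3, the replicate block 2 and leaving out a library 0 to 5. In the ROR element driven arm (1 called higher), the values were 0 with total-count scaling, 2 without the filter, 0 to 2 with a library left out and 1 with the replicate block, where Arntl (adjusted p = 0.0205) was called in place of Cry1 (0.0575). Heart outputs called higher (1) became 0 with total-count scaling, 2 without the filter, 2 with DESeq2, 2 with the replicate block and 1 to 2 with a library left out. The cause of these changes was not tested.

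The methods speak of pairs of sham and TAC mice, but do not say which animals form a pair or that equal replicate numbers mark one, and the deviations of same-numbered libraries correlated at −0.236 over 12499 genes. With the replicate number as a block, 566 genes were called in all, with 1 member higher and 2 lower. A crossed pairing, chosen after seeing the data, called 968 genes higher and 1163 lower, with 4 members and 4 E-box driven genes lower, and 2 ROR element driven genes and 2 heart outputs higher.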
